A study of Mus musculus with 6 samples.

Results

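The genes described are the 10 cathepsins listed in the expression table, Ctsa, Ctsb, Ctsc, Ctsd, Ctsf, Ctsh, Ctsl, Ctso, Ctss and Ctsz. They were found in the table by their symbols, with no measured value in the rule, and make up 10 of the 19225 genes listed. CD11b+ cells, the bead-enriched fraction of the brain that holds the microglia, came from 3 Cnr1+/+ and 3 Cnr1-/- mice, with 1 library per mouse. All 6 mice were male, 3 months old by the sample labels and had not been exposed to stress, and the study's methods give littermates on a C57BL/6J background and removal of the cerebellum. The Cnr1-/- mice carried the tm1Zim allele, in which a neomycin cassette interrupts the coding region of the cannabinoid receptor 1 gene in all tissues from conception, so the allele is not specific to the cells sequenced. The comparison asks how the absence of this receptor changes the resting transcriptome of microglia, and here how it bears on the lysosomal proteases.

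Cathepsins are proteases made as inactive precursors, carried to the endosome and lysosome, and activated there at acid pH. Most are cysteine proteases, whereas cathepsin D is an aspartic and cathepsin A a serine protease. Microglia use them to degrade engulfed material, to trim the invariant chain of MHC class II and to cut endosomal Toll-like receptors. Secreted cystatins and cytosolic stefins inhibit the cysteine members, and transcription factors of the MiT/TFE family (TFEB, TFE3, MITF) switch on lysosomal genes through an E-box, CACGTG, of which TCACGTGA is the extended form.

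Start-site windows of RefSeq (assembly GRCm38.p6, 250 bases before to 50 bases after a transcript start) were given for 8 of the 10 genes, in 9 windows, and not for Ctsb and Ctsh. The sequences shown are the extended E-boxes, because they distinguish Ctsa and Ctsd from the other genes with a window. Also shown is the interferon-type element of Ctss and Ctso, a pair of GAAA letters separated by 2 bases of any kind. Both matches of Ctsa lie in the window of an internal start, inside the annotated gene, and the window at the gene's own start holds neither CACGTG nor TCACGTGA. Capitals mark 1 match in each sequence, and Ctso has a second match, from base 22, that overlaps the first and runs on into the lower-case letters. Each sequence runs 5′ to 3′ on the strand of its gene and both strands were searched.
Ctsa, 13 bases upstream, chr2:164833749-164833778, + strand, in a Ctsa exon annotated as UTR: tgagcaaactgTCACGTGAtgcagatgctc
Ctsa, from base 5 of the transcript, chr2:164833766-164833795, + strand, same exon: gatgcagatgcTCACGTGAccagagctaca
Ctsd, 99 bases upstream, chr7:142387908-142387937, - strand, in a Ctsd exon annotated as UTR: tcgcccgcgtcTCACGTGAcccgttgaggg
Ctss, 21 bases upstream, chr3:95526755-95526784, + strand, outside exons: gtctttaaatGAAACCGAAAtgaaagttca
Ctso, from base 16 of the transcript, chr3:81932606-81932635, + strand, in a Ctso exon annotated as UTR: gcggagccaaGAAACCGAAAgagaaagcgg

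The 8 letters TCACGTGA were present in the windows of 2 of the 8 genes and in 0.974% of all 32851 windows of 300 bases. The shorter CACGTG, which every TCACGTGA contains, was present in Ctsa, Ctsd, Ctsf and Ctsl, 4 of the 8 genes, against 7.15% of all windows. The paired GAAA was found in Ctss and Ctso, 2 of the 8 genes, against 3.44% of all windows. GAGGAA, the core letters bound by the myeloid factor PU.1, was found in Ctss and Ctsc, 2 of the 8 genes, against 28.3% of all windows. A match describes the letters of the window and no binding was measured.

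The values are cpm (read counts scaled to library size, by the authors with TMM), and because the kit reads 1 fragment at the 3′ end of each transcript, levels of different genes are compared without division by length. The libraries corresponded to 7708799 to 10723810 reads, so that 3 reads were worth 0.280 to 0.389 cpm. Summed over 12 microglia markers (Tmem119, P2ry12 and others), each library held 15657 to 18105 cpm, against 31.7 to 37.4 cpm for 8 neuron markers and 16.5 to 27.1 cpm for 6 endothelial markers. Border-associated macrophage markers summed to 105 to 162 cpm, lymphocyte markers to 5.29 to 9.99 cpm, astrocyte markers to 298 to 549 cpm and oligodendrocyte markers to 420 to 853 cpm. One library stood apart: Cnr1-/- replicate 2 held 4099 cpm of neutrophil markers, against 268 to 530 cpm in the other 5 libraries, 2342 cpm of erythrocyte markers, against 136 to 237 cpm, and 115 cpm of monocyte markers, against 30.5 to 37.2 cpm. The targeted gene Cnr1 was listed at 0 in all 3 Cnr1+/+ libraries and at 1.41, 1.21 and 1.79 cpm in the libraries labelled Cnr1-/-. This goes against the labels, and since the reads come from the 3′ end they need not cover the interrupted coding region, so directions are given for the libraries as labelled.

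No cathepsin passed the test for a difference between the genotype labels, in either direction. All 10 passed the filter (a mean of at least 10 cpm), and 0 of 10 had a nominal p under 0.05 with limma on log2 (cpm + 0.1), with limma voom also giving 0, against a background of 6.02% of the 6659 genes tested. None reached a fold change over 1.5 at an adjusted p under 0.1 (limma, lowest adjusted p = 0.857), as 0.0901% of all genes did. In no member were the 3 libraries of one label all above or all below those of the other, against 11% of all genes. Their log2 fold changes lay between -0.08 and 0.20, with a median of 0.09, against 0.08 over all genes tested, and 8 of 10 were above 0, against 68.4% of all genes. The 95% intervals allowed changes between 0.789-fold and 1.38-fold, and thus all 10 lay within 1.5-fold in either direction, as did 56.4% of the intervals over all genes. In RNA of bulk cells, fewer cells of a type and less RNA per cell cannot be told apart.

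**Figure D1:**
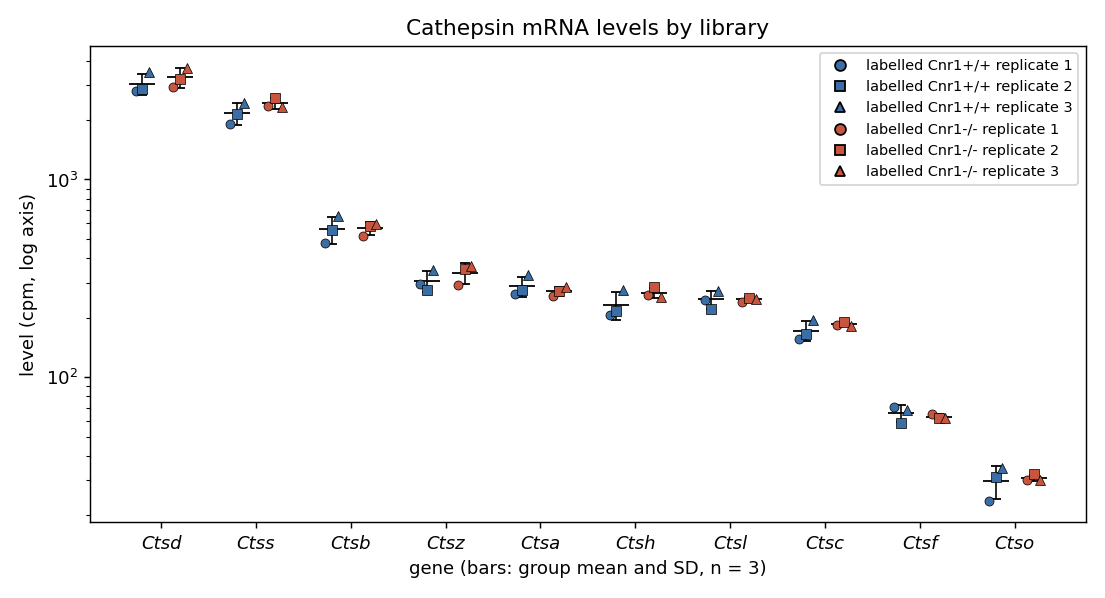
Level of each cathepsin in cpm (log axis) in the 3 libraries labelled Cnr1+/+ (blue) and the 3 labelled Cnr1-/- (red), with marker shapes for the replicate and bars for the group mean and SD (n = 3). The genes are ordered by their mean, from Ctsd at 2795 to 3683 cpm to Ctso at 23.7 to 34.8 cpm, and the groups overlap for every gene.

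Ctsd encodes the aspartic endopeptidase of the lysosome and was the most abundant cathepsin. Its level was 2795, 2868 and 3488 cpm in the Cnr1+/+ libraries and 2950, 3217 and 3683 cpm in the libraries labelled Cnr1-/-. The highest library was Cnr1-/- replicate 3 and the lowest Cnr1+/+ replicate 1, with the groups overlapping, and the means were 3051 ± 381 and 3283 ± 371 cpm (SD, n = 3). The log2 fold change was 0.11 (95% interval -0.18 to 0.39, limma, adjusted p = 0.946). The gene (chr7:142375911-142388038, - strand, mm10) ranked 9 of the 6659 genes by mean level. Its 3′ end lies within Gm49369, annotated on the same strand and with no value here, so reads of the pair may have been divided between them.

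Ctss, a cysteine endopeptidase that stays active near neutral pH and is typical of antigen-presenting cells, ranked 16. It was at 1905, 2147 and 2449 cpm in the Cnr1+/+ libraries and at 2361, 2599 and 2324 cpm in those labelled Cnr1-/-. Cnr1+/+ replicates 1 and 2 were the lowest, whereas Cnr1+/+ replicate 3 lay above 2 of the 3 libraries of the other label. The log2 fold change was 0.17 (interval -0.10 to 0.44, limma, adjusted p = 0.900). Within Ctss (chr3:95526786-95556403, + strand) lies a processed pseudogene, Hmgb1-ps5, listed at 6.43 to 17.5 cpm.

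Ctsb encodes a cysteine protease that cuts both within chains and from their ends. Its level was 476, 554 and 653 cpm under the Cnr1+/+ label and 519, 581 and 598 cpm under the Cnr1-/- label. Both extremes were Cnr1+/+ libraries, replicate 1 being the lowest and replicate 3 the highest, and the values labelled Cnr1-/- lay between them. The log2 fold change of 0.02 (interval -0.23 to 0.28, limma, adjusted p = 0.989) was smaller than its SE of 0.12. The 3′ end of Ctsb (chr14:63122462-63145923, + strand) is covered on the opposite strand by Fdft1, listed at 2.61 to 7.15 cpm.

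Ctsl encodes a cysteine endopeptidase with broad activity in the lysosome. It was at 247, 221 and 274 cpm in the Cnr1+/+ libraries and at 240, 252 and 249 cpm in the libraries labelled Cnr1-/-. Again the Cnr1+/+ libraries held both extremes, and the means were equal within the precision given, at 247 ± 26.8 and 247 ± 6.15 cpm (SD, n = 3). The log2 fold change was 0.01 (SE 0.12, interval -0.24 to 0.25, limma, adjusted p = 0.995). The antisense gene Gm47123, inside Ctsl (chr13:64359337-64370890, - strand), was listed at 0.217 to 6.10 cpm.

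Ctsf and Ctso, cysteine proteases less studied than the others, had the lowest levels. Ctsf was at 70.6, 58.7 and 67.8 cpm in the Cnr1+/+ libraries and at 65.0, 62.5 and 62.1 cpm in those labelled Cnr1-/-. It was the 1 member with its highest value in Cnr1+/+ replicate 1, the library that was lowest for 6 of the 10 genes. Its log2 fold change was -0.05 (interval -0.34 to 0.24, limma, adjusted p = 0.977). Ctso was at 23.7, 31.1 and 34.8 cpm in the Cnr1+/+ libraries and at 30.3, 32.3 and 30.1 cpm in the other 3. Here Cnr1+/+ replicate 1 was again the lowest and Cnr1+/+ replicate 3 the highest, and the log2 fold change was 0.06 (interval -0.31 to 0.44, limma, adjusted p = 0.979). No annotated gene overlaps Ctsf (chr19:4855130-4860918, + strand) or Ctso (chr3:81932601-81956725, + strand).

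Ctsh encodes an aminopeptidase of the cysteine class. With the deposited scaling its log2 fold change was furthest from 0 among the members, whereas Ctsa was furthest under the 3 other scalings described below. It was at 206, 216 and 276 cpm in the Cnr1+/+ libraries and at 259, 285 and 256 cpm in the libraries labelled Cnr1-/-. Cnr1+/+ replicates 1 and 2 lay below all 3 libraries of the other label, whereas Cnr1+/+ replicate 3 lay above 2 of them, so that the groups overlapped. The means of 233 ± 38.0 and 266 ± 16.0 cpm (SD, n = 3) gave a log2 fold change of 0.20 (SE 0.13, interval -0.05 to 0.46, limma, adjusted p = 0.857). No annotated gene overlaps Ctsh (chr9:90054152-90076089, + strand).

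Ctsc encodes dipeptidyl peptidase I, which removes pairs of residues and activates the serine proteases of neutrophil granules. It was at 157, 165 and 194 cpm in the Cnr1+/+ libraries and at 184, 191 and 182 cpm in those labelled Cnr1-/-. Cnr1+/+ replicates 1 and 2 were the lowest, as for Ctsh, and Cnr1+/+ replicate 3 was the highest of all. The log2 fold change was 0.12 (interval -0.13 to 0.37, limma, adjusted p = 0.929). In Cnr1-/- replicate 2, the library with the neutrophil markers, Ctsc exceeded the other libraries of its label by less than 10 cpm. Ctsc lies at chr7:88278085-88310888 on the + strand, with the non-coding Gm26522 opposite part of it.

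Ctsz encodes cathepsin X, a cysteine carboxypeptidase that removes single residues. Its level was 298, 276 and 349 cpm in the Cnr1+/+ libraries and 292, 353 and 366 cpm in the libraries labelled Cnr1-/-. Cnr1-/- replicates 2 and 3 were the highest, Cnr1-/- replicate 1 lay between the Cnr1+/+ values, and the log2 fold change was 0.13 (interval -0.12 to 0.39, limma, adjusted p = 0.910). The gene (chr2:174427493-174439039, - strand) shares the last 10 bases of its 3′ end with Nelfcd on the opposite strand, listed at 11.6 to 22.1 cpm.

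Ctsa encodes the serine carboxypeptidase that also protects beta-galactosidase and neuraminidase 1 in a complex, called the protective protein. It was at 263, 276 and 327 cpm in the Cnr1+/+ libraries and at 256, 274 and 286 cpm in those labelled Cnr1-/-. Cnr1+/+ replicate 3 was the highest and Cnr1-/- replicate 1 the lowest, and the other 4 libraries were interleaved. With means of 288 ± 33.9 and 272 ± 14.9 cpm (SD, n = 3), the log2 fold change was -0.08 (SE 0.12, interval -0.33 to 0.17, limma, adjusted p = 0.954). The 3′ end of Ctsa (chr2:164832873-164841032, + strand) lies opposite Pltp, listed at 2.27 to 6.08 cpm.

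**Figure D2:**
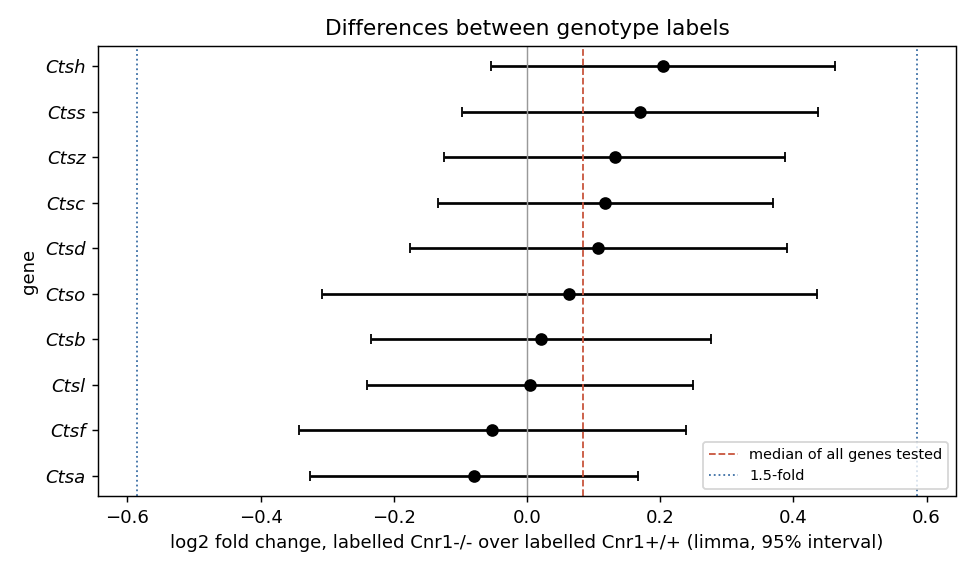
Log2 fold change of each cathepsin (points) with its 95% interval from limma (bars), libraries labelled Cnr1-/- over those labelled Cnr1+/+, 3 libraries each. The dashed line is the median of all genes tested (0.08) and the dotted lines are changes of 1.5-fold. All 10 intervals include 0 and lie within the dotted lines.

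Leaving out 1 library changed this count in 1 of 6 cases. Without Cnr1+/+ replicate 3, 2 of 10 members passed the nominal threshold, Ctsh at a log2 difference of 0.33 (limma, adjusted p = 0.430) and Ctss with 0.26 (limma, adjusted p = 0.516), and the median over all genes rose to 0.13. In the same fit 9.07% of all genes tested were called, 600 of 6614, of which 548 were higher under the Cnr1-/- label. Without any of the other 5 libraries, Cnr1-/- replicate 2 with its neutrophil and erythrocyte markers included, the count was 0. All 10 intervals remained within 1.5-fold in each of these 6 fits.

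Cathepsin levels varied between libraries of the same label, as the grid of deviations shows. Cnr1+/+ replicate 3 held the highest value of 5 members and Cnr1-/- replicates 2 and 3 that of 2 each. Cnr1+/+ replicate 1 held the lowest value of 6 members and Cnr1+/+ replicate 2 that of 3. The median member lay 0.18 below its own mean (log2) in Cnr1+/+ replicate 1, where the median of all genes lay 0.13 below, and 0.15 above it in Cnr1+/+ replicate 3, where the median of all genes lay 0.06 above. The ratio of the highest to the lowest library was 1.20 for Ctsf and 1.47 for Ctso, the other 8 members lying between.

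**Figure D3:**
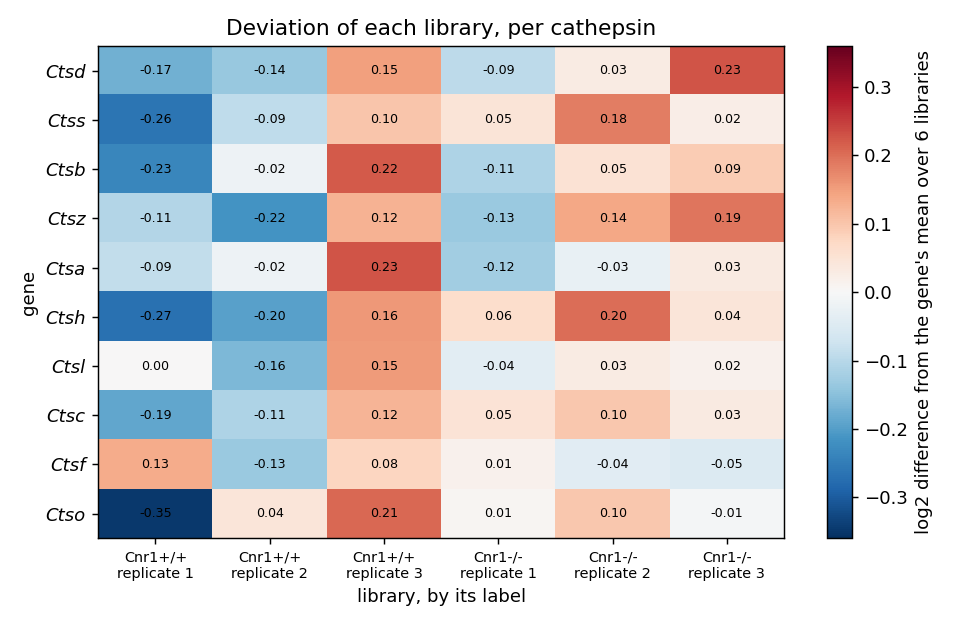
Difference of each library from the mean of the gene over the 6 libraries, on the log2 scale, for each cathepsin (rows, by mean level) and library (columns), blue below and red above the mean. Cnr1+/+ replicate 1 is below the mean in most rows and Cnr1+/+ replicate 3 above it in every row, and the columns labelled Cnr1-/- run from -0.13 to 0.23.

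The SD was smaller under the Cnr1-/- label for 9 of the 10 members, Ctsz being the exception, against 57.1% of all genes. The coefficient of variation ranged from 9.49% to 18.9% over the Cnr1+/+ libraries (median 12.4%) and from 2.32% to 11.7% over those labelled Cnr1-/- (median 5.74%), against medians of 15.0% and 12.3% over all genes tested. Counting alone gives between 0.569%, for Ctsd, and 6.03%, for Ctso. The coefficient among the libraries labelled Cnr1-/- was below that of counting for Ctsc, Ctsf and Ctso. With 3 libraries a label, an SD is itself imprecise and the members share their libraries, so the difference in spread was given no test.

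In the order of levels, Ctsd exceeded Ctss by 1.38-fold on average (1.24 to 1.58-fold) and Ctss exceeded Ctsb by 4.08-fold (3.75 to 4.55-fold), both in 6 of 6 libraries. Ctsb exceeded Ctsz by 1.75-fold, Ctsl exceeded Ctsc by 1.38-fold, Ctsc exceeded Ctsf by 2.77-fold and Ctsf exceeded Ctso by 2.13-fold, each in 6 of 6 libraries. The 4 genes in the middle were not separated, since Ctsz exceeded Ctsa in 5 of 6 libraries, Ctsa exceeded Ctsh in 4 of 6 and Ctsh exceeded Ctsl in 4 of 6. By rank among the 6659 genes, Ctsb was 67, Ctsz 132, Ctsa 167, Ctsh 200, Ctsl 202, Ctsc 332, Ctsf 1216 and Ctso 2842.

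Summed over the 10 genes, cathepsin mRNA was 6440, 6813 and 8114 cpm in the Cnr1+/+ libraries and 7157, 7845 and 8037 cpm in those labelled Cnr1-/-. The lowest and the highest sums were both from libraries labelled Cnr1+/+, and the means of 7122 ± 879 and 7680 ± 462 cpm (SD, n = 3) differed by 0.11 on the log2 scale (two-sided exact permutation p = 0.4, where 3 against 3 cannot give less than 0.1). Under the other scalings described below, this difference lay between -0.11 and 0.038. As a share of all listed cpm the sum was 1.35% under either label (exact permutation p = 1), and divided by the sum of the microglia markers it was 0.431 and 0.444 (exact permutation p = 0.5). Ctsd and Ctss together held 73.0% to 73.6% of the sum in the Cnr1+/+ libraries and 74.1% to 74.8% in those labelled Cnr1-/-, without overlap, whereas the share of each on its own overlapped. Of all 45 pairs of members, the joint shares of 10 did not overlap (22.2%), 6 of them with Ctsa, and as shares of 1 sum they are not independent.

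Taken as shares of this sum, which removes what a library does to all members alike, the groups did not overlap for 1 of the 10 members, Ctsa. This is near the background, since relative to the same sum 9.72% of all genes tested did not overlap, so the count is no result about the members. Its share was 4.08%, 4.05% and 4.03% in the Cnr1+/+ libraries and 3.58%, 3.49% and 3.56% in the libraries labelled Cnr1-/-. The means of 4.05% ± 0.0243 and 3.54% ± 0.0448 (SD, n = 3) gave a log2 ratio of -0.19. Ctsa was singled out after these values were seen, so the difference is a description and was given no test.

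Ratios of Ctsa to single members rest on the same values. Ctsc over Ctsa was 0.593 to 0.598 in the Cnr1+/+ libraries and 0.637 to 0.719 in those labelled Cnr1-/-, and Ctsh over Ctsa was 0.784 to 0.846 and 0.894 to 1.04. Ctsa was lower relative to 6 of the 9 other members without overlap between the labels, namely Ctsb, Ctsc, Ctsd, Ctsh, Ctss and Ctsz. Among all 45 ratios of 2 members, 7 did not overlap (15.6%), the seventh being Ctsh over Ctsl, against 10.8% of the ratios of any 2 genes tested. The 6 ratios share Ctsa and are not independent of each other. Measured against each of the other 6658 genes tested, the ratio of Ctsa did not overlap for 18.6%, nearly always with the lower values under the Cnr1-/- label (17.5%), compared with 7.21% to 13.9% for the other 9 members. These ratios reuse the Ctsa values that singled it out and add no separate support. How this percentage spreads over all single genes is not given here.

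**Figure D4:**
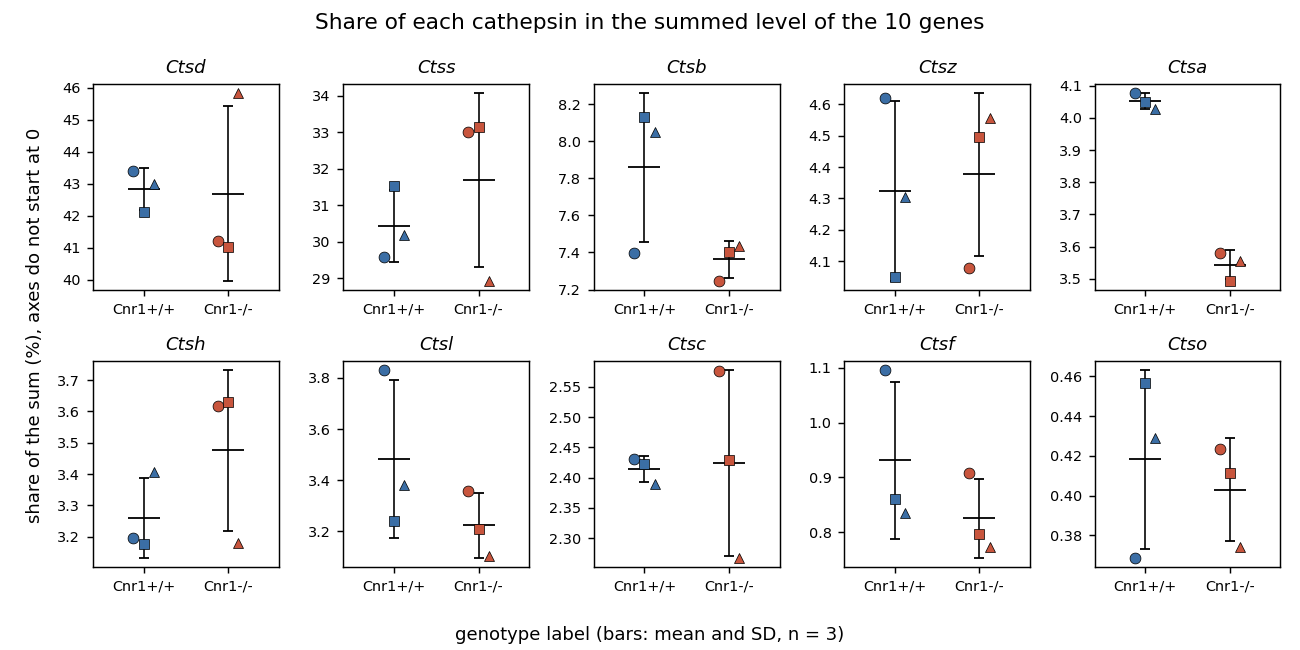
Share of each cathepsin in the summed level of the 10 genes (percent, separate axes that do not start at 0), for the libraries labelled Cnr1+/+ (blue) and Cnr1-/- (red), with circles, squares and triangles for replicates 1, 2 and 3 and bars for the mean and SD (n = 3). The groups are separate for Ctsa (4.03% to 4.08% against 3.49% to 3.58%) and overlap for the other 9 genes, where 9.72% of all genes tested are separate relative to the same sum.

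The sign of small differences depended on how the libraries were scaled. Over all genes, the deposited scaling gave 339 higher and 62 lower genes at a nominal p under 0.05 (5.09% and 0.931%), whereas centring each library on its median gave 197 of 375 higher, quantile normalisation 163 of 360 and rescaling without mitochondrially encoded genes 142 of 352. Under these 3 scalings, Ctsa and Ctsf were lower and Ctsh, Ctsc and Ctsz higher under the Cnr1-/- label, as with the deposited values. Ctsb, Ctsl and Ctso turned from above to below 0 in all 3, and Ctsd did so under quantile normalisation (-0.19). Ctsa passed the nominal threshold in 1 of them, quantile normalisation, at a log2 difference of -0.20 (limma, adjusted p = 0.893).

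**Figure D5:**
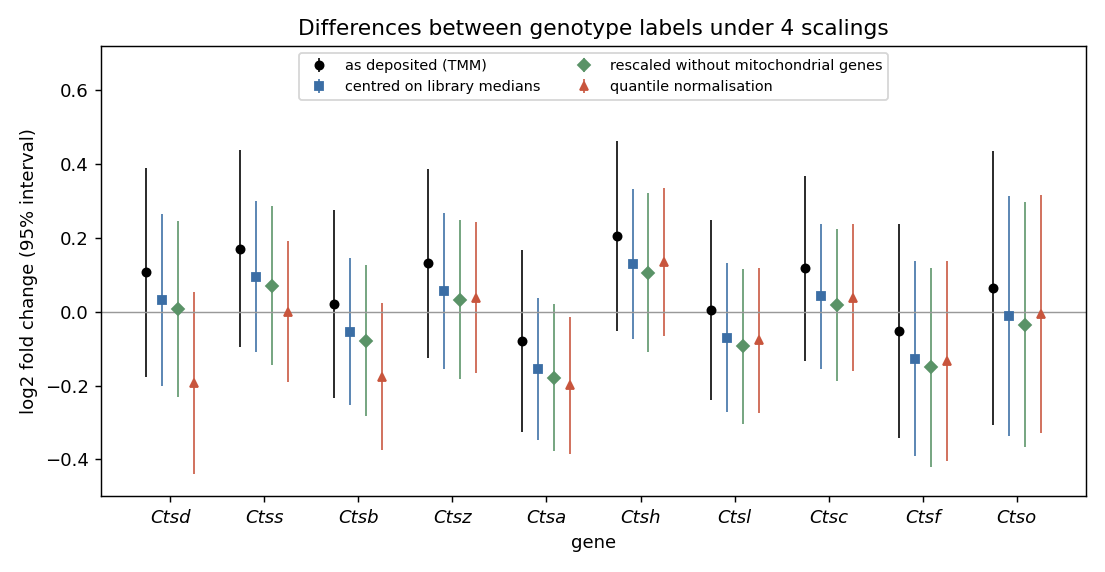
Log2 fold change of each cathepsin with its 95% interval (limma, 3 libraries a label) as deposited and under 3 other scalings. Ctsa and Ctsf lie below 0 and Ctsh, Ctsc and Ctsz above 0 under all 4, and the interval of Ctsa under quantile normalisation is the only one that does not include 0.

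Of 29 other genes tested that act with cathepsins, 2 passed the nominal threshold (6.90%, against 6.02% of all genes), Sort1 and Cd74. Sort1 encodes sortilin, a receptor that carries precursors, cathepsin D and H among them, to the lysosome. It was at 74.2, 83.2 and 97.0 cpm in the Cnr1+/+ libraries and at 99.2, 120 and 98.6 cpm in those labelled Cnr1-/-, without overlap, and its log2 difference was 0.32 (SE 0.14, limma, adjusted p = 0.793). Without Cnr1-/- replicate 2, the library with neutrophil and erythrocyte markers, it was 0.23 and no longer passed the nominal threshold, and the part of those cells in the difference was not tested. It also missed the threshold without Cnr1+/+ replicate 1 (0.23) or without Cnr1+/+ replicate 2 (0.32), and under quantile normalisation, rescaling without mitochondrially encoded genes (0.23 each) and eBayes without trend.

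The 12 genes of activation and sorting were the group with the highest median log2 fold change, 0.19 over the 10 tested, against 0.08 over all genes. Of these 10, 1 (Sort1) passed the nominal threshold upward, against 5.09% of all genes, and 0 downward, against 0.931%. The log2 fold changes of 9 were above 0, against 68.4% of all genes, M6pr (-0.03) being the exception. In 4 (Sort1, Neu1, Psap and Lrp1) the libraries labelled Cnr1-/- all lay above the others, against 8.85% of all genes. Psap, the precursor of the saposins that cathepsin D cuts, was at 1503, 1618 and 1757 cpm against 1791, 1955 and 1952 cpm (log2 fold change 0.23, limma, adjusted p = 0.839). Neu1, which forms the complex with the protein of Ctsa, was at 33.1, 37.4 and 36.3 cpm against 37.8, 44.4 and 40.5 cpm (log2 fold change 0.20, limma, adjusted p = 0.900), so that neither passed the threshold in this fit. Psap passed it with limma voom (adjusted p = 0.812) and without Cnr1+/+ replicate 3 (0.28), and its log2 fold change was 0.15, 0.044 and 0.13 after centring, quantile normalisation and rescaling. Neu1, Lrp1, M6pr, Glb1 and Igf2r lie outside the rule for naming genes and were named after their values were seen. Glb1, the beta-galactosidase in the complex of Ctsa and Neu1, was at 22.0 to 26.2 cpm. Its groups overlapped and its log2 fold change was 0.01. Igf2r, under the filter at 0 to 0.798 cpm, had the libraries labelled Cnr1-/- all below the others. Lgmn, the legumain protease that converts several cathepsins to their 2-chain forms, was at 687 to 947 cpm with a log2 fold change of 0.07, and Grn, the progranulin that lysosomal proteases cut into granulins, at 517 to 655 cpm with 0.12.

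Among the substrates, 9 of 10 were tested. Of these, 0 were called higher and 1 lower at the nominal threshold, against 5.09% and 0.931% of all genes. The log2 fold changes of 7 were above 0, against 68.4% of all genes. The median of the 9 was 0.12, against 0.08 over all genes. In 3 of these substrates (Psap, Tlr13 and Tmem106b, the last 2 named after their values were seen) the libraries labelled Cnr1-/- all lay above the others, against 8.85% of all genes. Psap was also counted under activation and sorting, and over the 29 distinct related genes tested 6 lay so. Cd74, the invariant chain that cathepsin S trims, was at 45.3, 50.9 and 46.6 cpm in the Cnr1+/+ libraries and at 26.3, 37.5 and 32.7 cpm in those labelled Cnr1-/-. The groups did not overlap (2.13% of all genes lay so in this direction), and the log2 fold change was -0.58 (SE 0.17, limma, adjusted p = 0.480). Markers of border-associated macrophages, which also express MHC class II genes, summed to 128, 133 and 162 cpm in the Cnr1+/+ libraries and to 105, 107 and 135 cpm in those labelled Cnr1-/-. Of the 8 markers, 7 were tested and none was at 0 in any library. The log2 fold changes of 5 were below 0 and those of Cd163 and Lyve1 above it, where 68.4% of all genes were above 0. Pf4 alone was called lower at the nominal threshold (-0.48), against 0.931% of all genes. The groups of these sums overlapped, and the part of these cells in the difference in Cd74 was not tested. Ctss, whose product trims it, had its log2 fold change of 0.17 in the other direction and not past the threshold. Lamp2, a membrane protein of the lysosome that cathepsin A cleaves, was at 136 to 165 cpm with a log2 fold change of 0.07.

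Of 16 inhibitors, 10 were listed and 2 passed the filter, Cst3 and Cstb, neither past the threshold with all 6 libraries. Without Cnr1+/+ replicate 3, Cst3 passed the nominal threshold at a log2 difference of 0.28 (limma, adjusted p = 0.518), as did 9.07% of all genes in that fit. Cst3, the secreted cystatin C, exceeded every cathepsin, at 6251, 5670 and 6909 cpm in the Cnr1+/+ libraries and 6900, 7701 and 7160 cpm in those labelled Cnr1-/- (log2 fold change 0.21, limma, adjusted p = 0.900). Cstb, the cytosolic cystatin B, was at 16.4 to 27.0 cpm (log2 fold change 0.03). Cst7, the cystatin F known from activated microglia, was at 2.69 to 9.79 cpm, under the filter, with its highest value in Cnr1-/- replicate 2.

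Of 10 other lysosomal peptidases and their relatives, 8 were tested, none passed the threshold with limma, and the median log2 fold change was 0.06. Tpp1, the tripeptidyl peptidase of the lysosome, was at 160 to 182 cpm with a log2 fold change of 0.05, and Scpep1, a serine carboxypeptidase like cathepsin A, at 31.9 to 45.2 cpm with 0.18. The 3 MiT/TFE genes listed were also tested and 0 passed. Tfe3 was the highest of them, at 73.7 to 94.0 cpm with a log2 fold change of -0.13, followed by Mitf at 17.5 to 25.4 cpm with -0.05 and Tfeb at 8.77 to 13.5 cpm with -0.08. Of 13 further cathepsin genes, including those of osteoclasts, granulocytes and placenta, Ctse was the 1 listed in the table, at 0 in 3 libraries and at most 2.89 cpm, in Cnr1-/- replicate 2.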

How the data were processed

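RNA of CD11b+ cells was sequenced at transcript 3′ ends (QuantSeq FWD). The authors aligned the reads to mm10 with STAR, quantified them per gene with the expectation-maximisation counter of Partek against Ensembl transcripts and scaled them with TMM; the deposited values are CPM. Whether counting used strand is not given in the sources used here. Since 84.9% to 86.8% of values, depending on the library, were a whole number of reads (tolerance 0.05), the main fit used no count test. The limma voom fit, tried as an alternative, took the cpm as counts with an equal library size for all. Its weights therefore do not reflect the depth of each library. Intervals and limits from reads cover counting error only.

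Genotype labels were compared with limma 3.58.1 in R 4.3.3 (lmFit, eBayes with trend) on log2 (cpm + 0.1) for 6659 genes averaging 10 cpm or more, adjusted by Benjamini-Hochberg, and single values with two-sided exact permutation tests. Fold changes on this scale understate those of low genes. Each mouse gave 1 library. The members and gene lists were chosen with earlier results of these data known. Besides the members, each list's called genes (nominal p under 0.05) and its 3 genes of highest mean level were named. Member coordinates are those of GENCODE vM21. Other pseudocounts, filters, scalings and fits, and each library left out, were tried; the leave-one-out values of the Ctsa share were added after seeing the data. The steps were tested on simulated data, and figures were drawn with matplotlib 3.10.9.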

Additional observations from a re-analysis of the deposited data

How the results depend on the processing

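The count of cathepsins past the nominal threshold (0 of 10) moved to 1 under quantile normalisation and lay between 0 and 2 with 1 library left out, the 2 arising without Cnr1+/+ replicate 3. With the replicate number as a block it was 0, with 421 genes called in all and 8 after adjustment; same-numbered libraries did not deviate together (r from -0.056 to -0.031), so the numbers were not taken to pair the mice. The summed level (log2 ratio 0.11) was 0.038 when centred on medians and 0.012 when rescaled without mitochondrially encoded genes. It reversed to -0.11 under quantile normalisation and lay between 0.04 and 0.21 with 1 library left out. Centring on medians, quantile normalisation and rescaling (leaving out mitochondrially encoded genes) gave -0.054, -0.18 and -0.078 for Ctsb, -0.070, -0.077 and -0.094 for Ctsl, -0.012, -0.0062 and -0.035 for Ctso, -0.050, -0.052 and -0.074 for Cstb, -0.021, -0.032 and -0.045 for Tpp1, and -0.0022, -0.024 and -0.026 for Lamp2. Quantile normalisation gave -0.19 for Ctsd and 0 for Ctss, and Lgmn was at -0.0025 when centred and -0.027 when rescaled. Quantile normalisation sets each value by the rank of the gene in its library. Ctsd and Ctss, ranked 9 and 16 by mean level, hold most of the summed level. How far this made the sum reverse was not tested. With 1 library left out, the sign also turned for Ctsa (-0.14 to 0.014), Ctsb (-0.091 to 0.14), Ctsf (-0.13 to 0.0021), Ctsl (-0.074 to 0.083), Ctso (-0.093 to 0.18), Cstb (-0.17 to 0.19), Lgmn (-0.042 to 0.19), Tfeb (-0.19 to 0.10) and Mitf (-0.22 to 0.075). The groups of the Ctsa share do not overlap, so leaving out 1 library could not turn its sign (-0.20 to -0.18).

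The 2 called genes of the related lists became 3 with limma voom (Psap added) and 3 when unfiltered, 1 under quantile normalisation, rescaling and eBayes without trend, and 1 to 6 with 1 library left out, 6 without Cnr1+/+ replicate 3. Over all genes, the 401 nominal calls became 993 when unfiltered, 263 at a minimum mean of 20 and 251 to 600 with 1 library left out, lowest without Cnr1-/- replicate 2 and highest without Cnr1+/+ replicate 3. The 6 adjusted calls became 14 with no filter, 0 with limma after centring, quantile normalisation, rescaling or without trend (375, 360, 352 and 391 nominal calls; limma voom gave 6), and 1 to 24 with 1 library left out, lowest without Cnr1+/+ replicate 2 and highest without Cnr1-/- replicate 3. The cause of these changes was not tested. Ctso, at 183 to 346 reads a library, is the member whose precision depth limits most.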
